A study of Mus musculus with 109 samples.

Results

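These data asked whether the response of the mouse retina to IL1A and TNF together differed from what the responses to each cytokine alone add up to. The retinas were all those of the series that were wild type (WT, C57BL/6J), belonged to batch 1 and were taken at day 2, which gave 58 of 109 retinas. Of their eyes 31 had received PBS, 8 TNF, 9 IL1A (labelled IL1) and 10 IL1A+TNF by intravitreal injection. The mice were 2 to 4 months old, and the sexes were 15 female and 16 male retinas with PBS, 4 and 4 with TNF, 4 and 5 with IL1A, and 6 and 4 with IL1A+TNF. The retinas came from 35 mice. In 23 of them a cytokine-injected eye (8 TNF, 7 IL1A and 8 IL1A+TNF) was sequenced along with the PBS-injected eye of the same animal, so most PBS retinas came from mice whose other eye had met a cytokine. Each sample was RNA of a whole retina, in which fewer cells of a type and less RNA per cell cannot be told apart.

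IL1A and TNF are cytokines released by activated or damaged cells. IL1A acts through IL1R1 and MYD88 and TNF through TNFR1 and its RIPK1 complex, and both routes end on NF-kB and on MAP kinases that feed the AP-1 factors. Glia, vessels and leukocytes in the retina can answer these signals with further cytokines, among them interferons, which act through the JAK kinases on STAT2, IRF9 and related factors. In glaucoma research both cytokines have been studied for their part in the loss of retinal ganglion cells (RGCs).

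The quantity described was an additivity contrast on the log2 scale, the change with IL1A+TNF minus the sum of the changes with IL1A alone and TNF alone, each against PBS. A contrast of 0 means that the fold changes multiplied, and a contrast of 1 means that the level with IL1A+TNF was 2 times the level so expected. Levels are given as CPM, which are counts scaled to a common library size with TMM factors, and a gene was called above or below additivity at a false discovery rate (FDR) under 0.05 in limma-voom over the 19548 genes tested.

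The promoters of 8 genes above additivity are shown here because these genes lead the pair of groups that the results below return to, interferon-induced genes and cytosolic aminoacyl-tRNA synthetases. The sequences are from RefSeq (GRCm38.p6) and run 5′ to 3′ in the direction of the gene from 250 bases before its start to 50 after. Capitals mark matches on either strand to the interferon-stimulated response element (ISRE, GAAANNGAA), the STAT element (GAS, TTCNNNGAA), NF-kB (GGNNTTTCC), AP-1 (TGANTCA) and the C/EBP-ATF response element (CARE, TGATGNAA), the last of which was chosen after the values were seen.
Irgm1 (chr11:48871371-48871670, minus strand): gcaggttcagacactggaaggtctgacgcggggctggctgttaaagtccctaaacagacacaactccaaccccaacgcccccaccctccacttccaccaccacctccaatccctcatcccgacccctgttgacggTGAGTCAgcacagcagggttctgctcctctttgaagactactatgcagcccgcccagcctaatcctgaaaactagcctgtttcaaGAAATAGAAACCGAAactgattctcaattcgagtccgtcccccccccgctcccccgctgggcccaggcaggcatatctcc
Igtp (chr11:58199306-58199605, plus strand): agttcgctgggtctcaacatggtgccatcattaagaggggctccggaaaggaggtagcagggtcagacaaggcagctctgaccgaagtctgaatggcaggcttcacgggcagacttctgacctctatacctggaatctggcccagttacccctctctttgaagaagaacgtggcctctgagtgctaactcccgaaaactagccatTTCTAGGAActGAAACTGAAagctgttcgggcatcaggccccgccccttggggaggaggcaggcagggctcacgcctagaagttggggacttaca
Tgtp2 (chr11:49064163-49064462, minus strand): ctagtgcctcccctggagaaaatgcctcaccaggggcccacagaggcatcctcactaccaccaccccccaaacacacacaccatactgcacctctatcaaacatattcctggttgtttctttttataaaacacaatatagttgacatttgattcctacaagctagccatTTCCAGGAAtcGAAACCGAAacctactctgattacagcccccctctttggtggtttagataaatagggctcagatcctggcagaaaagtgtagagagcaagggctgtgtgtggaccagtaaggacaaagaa
Rsad2 (chr12:26456403-26456702, minus strand): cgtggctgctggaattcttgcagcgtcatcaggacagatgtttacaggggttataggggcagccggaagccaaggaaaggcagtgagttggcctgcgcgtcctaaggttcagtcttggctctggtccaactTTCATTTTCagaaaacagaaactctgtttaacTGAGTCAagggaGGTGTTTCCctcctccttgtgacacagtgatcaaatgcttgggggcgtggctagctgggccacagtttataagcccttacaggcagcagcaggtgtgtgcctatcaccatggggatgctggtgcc
Tars (chr15:11399609-11399908, minus strand): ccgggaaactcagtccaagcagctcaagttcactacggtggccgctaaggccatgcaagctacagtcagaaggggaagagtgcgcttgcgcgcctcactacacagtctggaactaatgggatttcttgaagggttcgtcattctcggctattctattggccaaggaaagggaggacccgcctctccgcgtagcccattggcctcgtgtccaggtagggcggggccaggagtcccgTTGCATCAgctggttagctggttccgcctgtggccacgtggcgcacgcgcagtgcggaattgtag
Yars (chr4:129189653-129189952, plus strand): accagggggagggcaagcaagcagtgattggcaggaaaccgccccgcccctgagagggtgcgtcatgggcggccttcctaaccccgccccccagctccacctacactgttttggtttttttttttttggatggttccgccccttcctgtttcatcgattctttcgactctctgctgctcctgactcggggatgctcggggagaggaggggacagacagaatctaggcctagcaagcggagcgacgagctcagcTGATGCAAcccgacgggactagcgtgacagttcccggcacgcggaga
Aars (chr8:111033592-111033891, plus strand): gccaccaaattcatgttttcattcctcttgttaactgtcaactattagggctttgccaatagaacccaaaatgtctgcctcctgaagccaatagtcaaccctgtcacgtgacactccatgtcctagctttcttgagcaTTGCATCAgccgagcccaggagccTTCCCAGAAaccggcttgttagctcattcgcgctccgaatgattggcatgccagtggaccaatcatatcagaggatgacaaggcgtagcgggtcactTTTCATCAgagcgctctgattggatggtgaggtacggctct
Iars (chr13:49681880-49682179, plus strand): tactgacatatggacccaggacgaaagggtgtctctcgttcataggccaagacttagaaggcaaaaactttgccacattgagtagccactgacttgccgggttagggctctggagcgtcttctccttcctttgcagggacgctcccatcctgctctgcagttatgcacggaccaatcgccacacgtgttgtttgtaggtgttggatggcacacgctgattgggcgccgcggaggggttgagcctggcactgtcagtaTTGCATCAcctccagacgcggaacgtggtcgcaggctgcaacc
Irgm1 held a pair of overlapping ISRE matches and an AP-1 match, and Igtp and Tgtp2 each held an ISRE match beside a GAS match. The capitals in Rsad2 are an ISRE match on the minus strand, an AP-1 match and an NF-kB match. Tars, Yars and Iars each held 1 CARE match, whereas Aars held 2 beside a GAS match.

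The 58 libraries held 30014757 to 45779899 counts (median 39330443). Rod genes made up at least 28740 CPM of every library, as a whole retina should show. A few retinas, 3 in all, stood apart from their groups across many of the genes described below, and results that rest on them are given with this in view. IL1A+TNF replicates 4 and 9 lay nearer to the PBS retinas than the other 8 did, and IL1A replicate 8 lay nearer to the IL1A+TNF retinas than the other 8 IL1A retinas did. The span of animal numbers that held all 9 IL1A retinas held 4 of the 8 TNF and 6 of the 10 IL1A+TNF retinas, and no date was labelled for the injections.

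Of the 19548 genes tested, 340 (1.74%) were above additivity and 348 (1.78%) were below, together 3.52%. The median contrast over all genes tested was -0.01. The contrast was at least 1 in size for 45 of the genes above and 29 of those below. It ranged from 0.12 to 2.68 above (median 0.38) and from -2.77 to -0.14 below (median -0.40). The share above among the called genes was 49.4% with TMM scaling and 38.5% with upper-quartile scaling. No gene passed the FDR when each mouse was a fixed term in limma (1923 genes at an unadjusted p under 0.05, smallest FDR 0.174) or when the IL1A+TNF change came from the retinas of batch 2 (3213 at an unadjusted p under 0.05, smallest FDR 0.0692), whereas edgeR called 426 above and 362 below and DESeq2 650 and 452. The fixed mouse term rests on the 23 mice with both eyes (8 TNF, 7 IL1A and 8 IL1A+TNF). Mice with 1 retina add nothing to that fit, so it also uses fewer retinas.

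**Figure D1:**
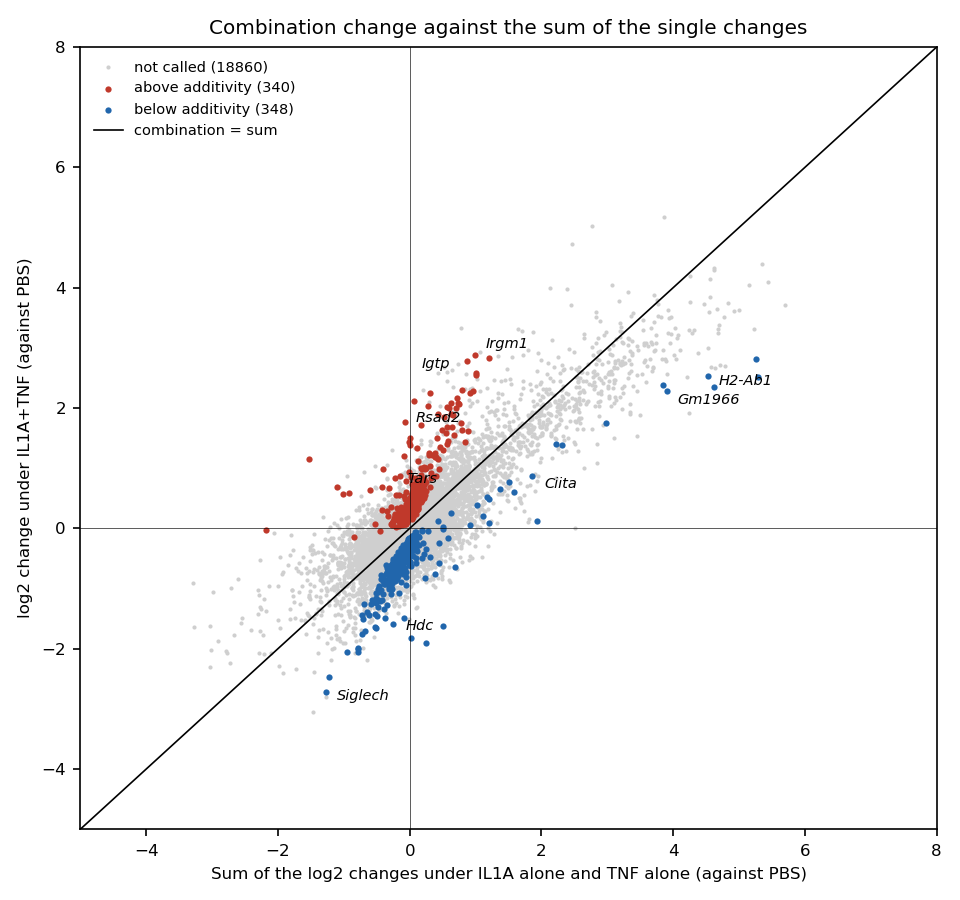
Each point is 1 gene, with the sum of its log2 changes with IL1A alone and TNF alone on the x axis and its log2 change with IL1A+TNF on the y axis, all against PBS; the diagonal marks additivity. Most of the 340 genes above additivity (red) lie at a sum near 0 and a combination change above 0, most of the 348 below (blue) at a combination change below 0, with the genes that were not called in grey.

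The genes above additivity were largely ones that only the combination moved far enough to be called. With IL1A+TNF, 328 of the 340 were higher than PBS (25% of all genes tested) and 0 were lower (25.5%). With IL1A alone, 86 were higher (12%) and 10 lower (9.44%), and with TNF alone 0 were called in either direction (0.471% higher and 0.0205% lower among all genes). For 244 neither cytokine alone was called, which also held for most of all genes tested. Of these 244, 237 were called with the combination, and the matching share of all genes tested was not counted. Against IL1A alone the combination was higher for 311 of the 340 (5.56% of all genes tested), and against TNF alone for 335 (20%). The median log2 change of the 340 genes was 0.38 with IL1A+TNF, 0.08 with IL1A and -0.06 with TNF.

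The genes below additivity were mostly lower with the combination. With IL1A+TNF 320 of the 348 were lower than PBS and 18 were higher, and with IL1A alone 162 were lower and 24 higher. The combination was lower than IL1A alone for 305 (4.68% of all genes tested) and lower than TNF alone for 325 (19%). The median log2 change was -0.47 with IL1A+TNF, -0.15 with IL1A and 0.05 with TNF. Split by the signs of the contrast and of the estimated IL1A+TNF change, whether or not that change was called, 337 genes had an increase above the sum, 325 a decrease below it, 23 an increase below it and 3 a decrease above it. All 340 genes above had at least 8 of the 10 IL1A+TNF retinas over the expected level, and all 348 below had at least 8 under it. These comparisons and retina counts use the same retinas as the contrast that chose the genes. They describe it further and are no separate evidence for it.

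Full separation of the groups was rare. All 10 IL1A+TNF retinas were above the other 48 for 1 of the 340 genes (Gm45837, contrast 0.38 ± 0.08), against 0.00512% of all genes tested. All 10 were below the other 48 for 3 of the 348 (Ero1l, Wdr78 and Abhd18), against 0.0256%. These names were picked after their values were seen.

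Interferon-induced genes held the 5 largest contrasts among genes above additivity with a mean of at least 1 CPM. Gm17040 (2.68), Atp13a4 (2.15) and Sprr1a (2.05) had larger contrasts at lower levels. Irgm1, an interferon-inducible GTPase (chromosome 11, 48861968 to 48871683), had a lowest, median and highest CPM of 7.98, 13.1 and 55 with PBS and of 9.24, 15.2 and 22 with TNF. With IL1A alone it stood at 14.6, 26.9 and 104, and with IL1A+TNF at 15.5, 158 and 226. In IL1A+TNF 8 of the 10 retinas, at 121 to 226, were above every other retina, while replicates 9 (15.5) and 4 (24.1) lay in the range of PBS. The expected level was 29.3 CPM, and the contrast was 1.90 ± 0.51 (SE, FDR 0.0275). The call was lost (FDR over 0.05) without IL1A+TNF replicate 3, IL1A replicate 3 or IL1A replicate 5, and the contrast was 2.20 without IL1A+TNF replicate 9 and 2.14 without IL1A replicate 8.

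Igtp, a GTPase of the same family, had a median of 7.99 CPM with PBS, 8.79 with TNF, 15.9 with IL1A and 86.7 with IL1A+TNF. Its IL1A+TNF values ran from 7.85 to 133 and overlapped every other group (contrast 1.90 ± 0.57, FDR 0.0438), and the call was lost in 27 of the 58 fits that left out 1 retina. Tgtp2, whose near-identical neighbour Tgtp1 can share its reads, rose from a median of 0.58 with PBS to 3.57 with IL1A+TNF against 0.60 with IL1A (contrast 1.94 ± 0.55, FDR 0.0335). Tgtp1 itself was not called (2.16, FDR 0.0998). Of the 13 genes tested of the interferon-gamma-induced GTPase list, 6 were above and 0 below (Gbp3, Gbp7, Irgm1, Irgm2, Igtp and Tgtp2), with a median contrast of 1.51. Gbp2 (0.23, FDR 0.582) and Gbp4 (0.01, FDR 0.994) of the same list were not called.

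Of 24 type I interferon-induced genes tested 12 were above and 0 below (18 called in edgeR and in DESeq2), and all 24 contrasts were positive (median 1.28). Their median log2 change was 1.76 with IL1A+TNF, 0.62 with IL1A and -0.01 with TNF. Rsad2, which encodes the antiviral enzyme viperin, ran from 1.96 to 7.95 CPM with PBS (median 3.62) and from 1.53 to 5.54 with TNF (median 3.05). It ran from 1.92 to 15.7 with IL1A (median 3.84) and from 2.86 to 22.1 with IL1A+TNF (median 16), so that the middle of the IL1A group was close to PBS and that of IL1A+TNF was not (contrast 1.85 ± 0.46, FDR 0.0146). Ifit3, which restricts viral RNA, had medians of 27.8, 27, 28.2 and 91.5 CPM with PBS, TNF, IL1A and IL1A+TNF (1.45 ± 0.33, FDR 0.00859). Ifit3 and Ifit3b are near-identical and can share reads. Cmpk2, a nucleotide kinase, showed the same order with medians of 15.4, 15.4, 15.8 and 47.3 CPM (1.23 ± 0.28, FDR 0.00912).

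The transcription factors that carry the interferon signal were above additivity as well. Stat2 had medians of 74.5 CPM with PBS, 71.1 with TNF, 100 with IL1A and 397 with IL1A+TNF (contrast 1.46 ± 0.32, FDR 0.00636). The 8 IL1A+TNF retinas other than replicates 4 (82.9) and 9 (71.8) lay at 289 to 486 CPM for Stat2, and IL1A replicate 8 lay among them at 318. Irf9 rose from a median of 42.7 with PBS to 68.8 with IL1A and 198 with IL1A+TNF (1.27 ± 0.31, FDR 0.0127). Irf1, a factor induced by interferon-gamma and NF-kB, had medians of 10.3, 11.4, 15.5 and 55.3 CPM (1.33 ± 0.35, FDR 0.0233), and it was the 1 gene called among 9 interferon ligands and receptors and their factors (median contrast 0.07). The interferon genes Ifng and Ifnb1 had at most 3 and 2 counts in any of the 58 retinas, and other interferon genes were not examined.

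**Figure D2:**
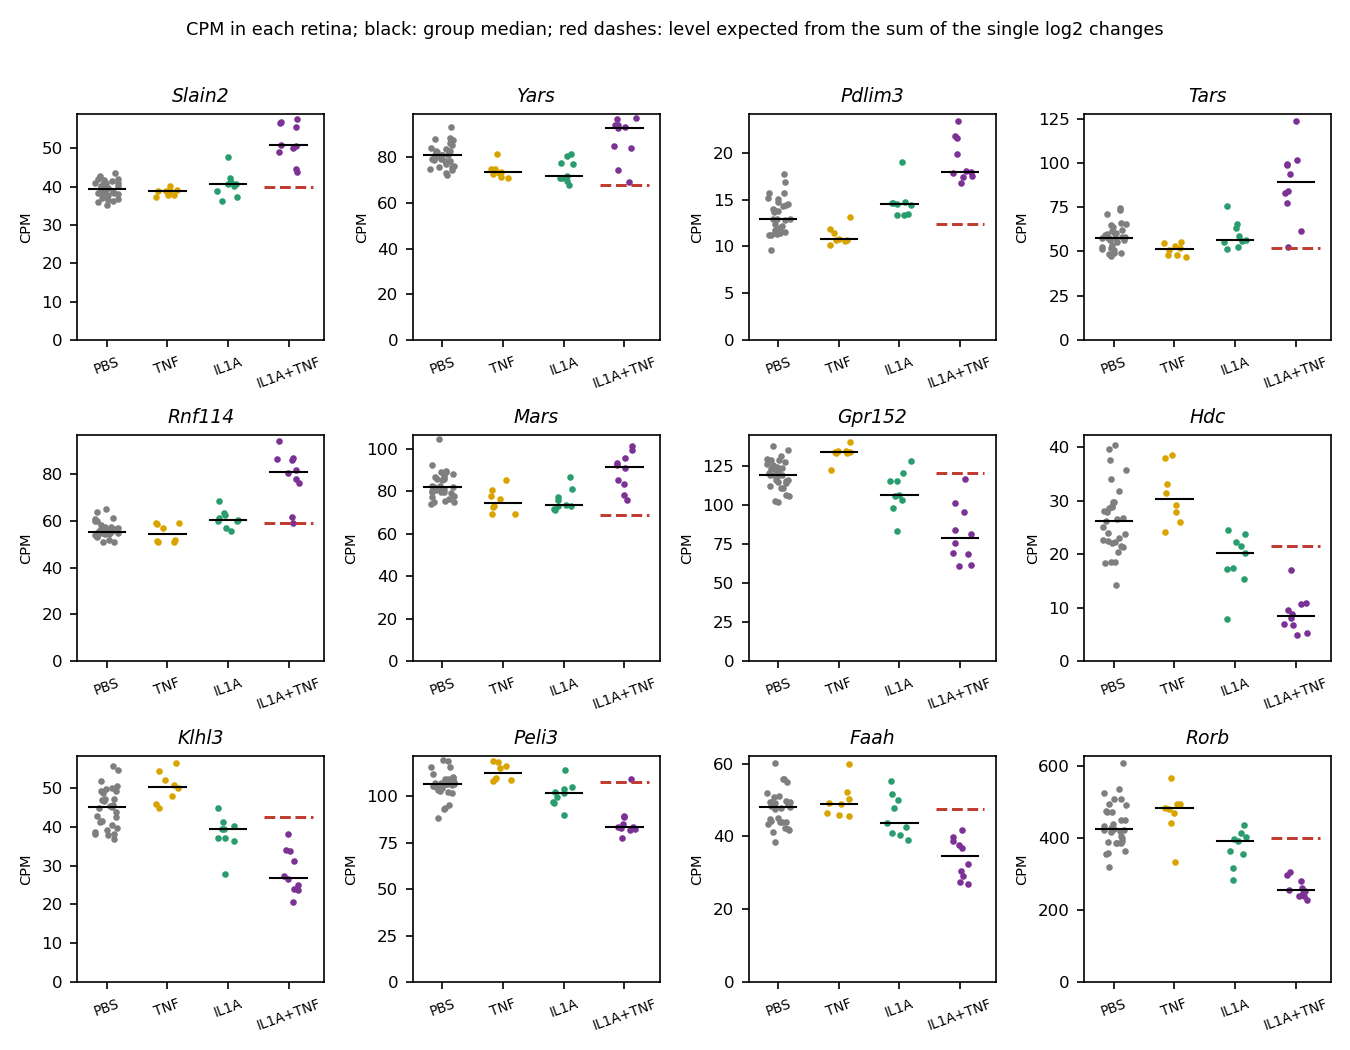
Each point is 1 retina and shows the CPM of 12 genes, the 6 of smallest FDR on each side of additivity, by treatment; black bars are group medians and red dashes the level expected with IL1A+TNF. Slain2 and Tars lie over the expected level in 10 of 10 IL1A+TNF retinas, and Hdc lies under it in 10 of 10.

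Genes above additivity were also found among other antiviral genes and genes of antigen presentation by MHC class I. Of 6 genes of the interferon-linked poly-ADP-ribose polymerases and Dtx3l, a list chosen after the values were seen, 5 were above and 0 below (median contrast 1.34). Parp10 had a lowest, median and highest CPM of 9.27, 11.5 and 53.1 with PBS, 8.86, 14.4 and 21.3 with TNF, 13.9, 25.3 and 96.1 with IL1A, and 14.9, 125 and 179 with IL1A+TNF. The groups overlapped (contrast 1.63 ± 0.48, FDR 0.0431), and the call was lost in 21 of the 58 fits without 1 retina. Tapbp, which loads peptides on class I molecules, had medians of 95, 106, 131 and 368 CPM with PBS, TNF, IL1A and IL1A+TNF (1.04 ± 0.24, FDR 0.00859). With Psmb10, a subunit of the immunoproteasome (0.86 ± 0.22, FDR 0.0217), it made 2 of 15 class I genes above and 0 below (9 at an unadjusted p under 0.05, 6 called in edgeR and 8 in DESeq2), and 13 contrasts were positive and 2 negative (median 0.65). Eif2ak2, the kinase PKR that halts translation on viral RNA, had a contrast of 1.23 ± 0.33 (FDR 0.0245).

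Leukocyte markers differed between the groups as well. The summed level of the 12 neutrophil markers (9 of them tested) was 19.4 to 178 CPM with PBS, 22.7 to 84.4 with TNF, 92.8 to 490.5 with IL1A and 194 to 1063 with IL1A+TNF, with medians of 38.1, 47.8, 235.8 and 283.2. That of 10 monocyte markers was 98.5 to 238.6, 89.5 to 359.4, 220.3 to 503.9 and 307.5 to 805.7, with medians of 155.7, 280.4, 312.9 and 403.8. In both lists the median with IL1A alone was nearer to that with IL1A+TNF than to that with PBS. Of the 9 neutrophil markers tested 0 were above or below additivity in limma (0 at an unadjusted p under 0.05, 0 in edgeR and DESeq2, median contrast 0.605). Of the monocyte markers 0 were called in limma (3 at an unadjusted p under 0.05, 1 in edgeR and 1 in DESeq2, median contrast -0.48, 7 of 10 negative), and Ly6g, Elane and Mpo were too low to be tested. The part of these cells in the interferon-induced genes was not tested.

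Cytosolic aminoacyl-tRNA synthetases, the enzymes that load amino acids on tRNAs, made up 5 of the 10 genes of smallest FDR above additivity. Of 20 tested, 9 were above and 0 below (median contrast 0.16, all 20 positive), and with IL1A alone 0 of the 20 were higher than PBS and 3 were lower. The list was made after the values were seen. Tars (threonine) had a lowest, median and highest CPM of 47.3, 57.9 and 74.4 with PBS, 47, 51.6 and 55.3 with TNF, and 51.2, 56.3 and 75.9 with IL1A. With IL1A+TNF it stood at 52.6, 89.2 and 123.5, and 10 of 10 retinas were over the expected 51.9 (contrast 0.71 ± 0.13, FDR 0.0019). The combination raised Tars by 0.55 on the log2 scale against 0.02 with IL1A (FDR 0.895) and -0.18 with TNF (FDR 0.601 in limma). The TNF change was taken against all PBS retinas. In TNF replicates 1 to 4 Tars stood at 52.15, 48.2, 51 and 55.3 CPM, and in the PBS eyes of the same mice at 47.3, 48.9, 51.25 and 50.6.

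Yars (tyrosine) was lowered by IL1A alone and higher with both. Its lowest, median and highest CPM were 72.4, 80.9 and 93.3 with PBS, 71, 73.4 and 81.5 with TNF, 67.9, 71.7 and 81.5 with IL1A, and 69.1, 93.1 and 97.4 with IL1A+TNF. The log2 change was -0.13 with IL1A (FDR 0.0148), -0.12 with TNF (not called, FDR 0.265) and 0.12 with IL1A+TNF (contrast 0.37 ± 0.06, FDR 0.0019). Mars (methionine) had medians of 82, 74.6, 73.3 and 91.6 CPM in the order PBS, TNF, IL1A and IL1A+TNF (0.36 ± 0.07, FDR 0.00194). Its median too was under PBS with each cytokine alone and over PBS with both. The change with TNF was not called (-0.13, FDR 0.214). Aars (alanine) was 0.44 ± 0.08 above additivity and Iars (isoleucine) 0.38 ± 0.07 (FDR 0.00194 each). The other 4 were Cars (0.38 ± 0.08, FDR 0.00344), Gars (0.38 ± 0.08, FDR 0.00441), Kars (0.21 ± 0.06, FDR 0.0335) and Rars (0.17 ± 0.05, FDR 0.0327). Of 17 mitochondrial synthetases 0 were called in limma (2 at an unadjusted p under 0.05, 0 in edgeR and DESeq2, median contrast 0.03).

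Genes for amino acid supply and for the stress response led by ATF4 were above additivity beside the synthetases. Of 22 genes in a list made after the values were seen, 8 were above and 0 below (median contrast 0.345). Atf4 itself, the factor translated when eIF2 is phosphorylated, had medians of 192, 174, 185 and 231 CPM with PBS, TNF, IL1A and IL1A+TNF (0.43 ± 0.09, FDR 0.00594). Aldh18a1, which begins proline synthesis (0.54 ± 0.11, FDR 0.00344), Mthfd2 of mitochondrial folate metabolism (0.64 ± 0.16, FDR 0.014) and the amino acid transporters Slc7a1 (0.37 ± 0.09, FDR 0.0174) and Slc38a2 (0.30 ± 0.07, FDR 0.0114) were others. Asns, asparagine synthetase, had a contrast of 0.36 ± 0.09 (FDR 0.0164) although its change with IL1A+TNF against PBS was 0.09 (FDR 0.13).

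Genes of protein production and turnover had small contrasts. Of 34 ribosome biogenesis genes 12 were above and 0 below (median contrast 0.17), and of 34 proteasome subunits 5 were above and 0 below (median 0.12). In both lists all 34 contrasts were positive, and in the next 22 were positive and 1 negative. Of 23 genes of the unfolded protein response 6 were above and 0 below (median 0.18), among them Ddit3, which encodes CHOP (0.29 ± 0.08, FDR 0.0366). These 3 lists were also made after the values were seen.

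The gene of smallest FDR was Slain2, which promotes microtubule growth (chromosome 5, 72914304 to 72978829). Its lowest, median and highest CPM were 35.2, 39.4 and 43.5 with PBS, 37.3, 38.8 and 40.1 with TNF, 36.2, 40.7 and 47.6 with IL1A, and 43.8, 50.7 and 57.7 with IL1A+TNF. All 10 IL1A+TNF retinas were over the expected 39.8, and 8 of 10 were over all other retinas (contrast 0.36 ± 0.06, FDR 0.00119). Pdlim3, an actin-associated protein of muscle, had medians of 12.9, 10.8, 14.6 and 18 CPM (0.61 ± 0.11, FDR 0.0019). Rnf114, a ubiquitin ligase, had medians of 55.3, 54.3, 60.5 and 80.9 CPM (0.40 ± 0.07, FDR 0.00194). Hap1, the huntingtin-associated protein of neurons, went from a median of 108 CPM with PBS to 184 with IL1A+TNF where 112 was expected (0.59 ± 0.11, FDR 0.00194), and Clptm1l had a contrast of 0.30 ± 0.06 (FDR 0.00211).

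Of 13 genes induced in injured RGCs 6 were above additivity and 0 below (median contrast 0.59). They were Atf3, Sprr1a, Ddit3, Sesn2, Tnfrsf12a and Jun. Ddit3 and Sesn2 were also counted in the list of ATF4 genes, and Ddit3 in that of the unfolded protein response. Atf3, a stress-induced AP-1 family factor, had medians of 18, 13, 21.7 and 52.6 CPM with PBS, TNF, IL1A and IL1A+TNF (1.38 ± 0.34, FDR 0.0127). Jun, its partner in axon injury, had medians of 48.7, 46.2, 55 and 86.7 CPM (0.60 ± 0.16, FDR 0.0203), and these were the 2 of 12 AP-1 genes above, with 0 below. Sprr1a, a marker of regenerating axons, was low throughout, with medians of 0.32, 0.16, 0.60 and 1.67 CPM (2.05 ± 0.57, FDR 0.0311), and Tnfrsf12a, the receptor of the TNF relative TWEAK, had a contrast of 0.75 ± 0.23 (FDR 0.0473). RGC marker genes were near additivity by comparison, with 0 of 13 above and 1 below, Isl1 (-0.40 ± 0.09, FDR 0.00968), and a median contrast of 0.02.

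Of 14 antioxidant and iron genes 5 were above and 1 below (median contrast 0.29). Above were the glutathione enzymes Gclm (0.30) and Gclc (0.15), Srxn1 (0.25), Txnrd1 (0.34) and the ferritin light chain Ftl1 (0.60 ± 0.18, FDR 0.042). Below was Tfrc, the transferrin receptor, with medians of 180, 201, 172 and 124 CPM with PBS, TNF, IL1A and IL1A+TNF (-0.52 ± 0.10, FDR 0.00332). Hmox1, haem oxygenase, rose from 7.82 CPM with PBS to 39.1 with IL1A and 143 with IL1A+TNF (medians), and its contrast of 0.97 ± 0.35 was not called on the log2 scale (FDR 0.101) but was on the CPM scale (FDR 2.6e-05).

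**Figure D3:**
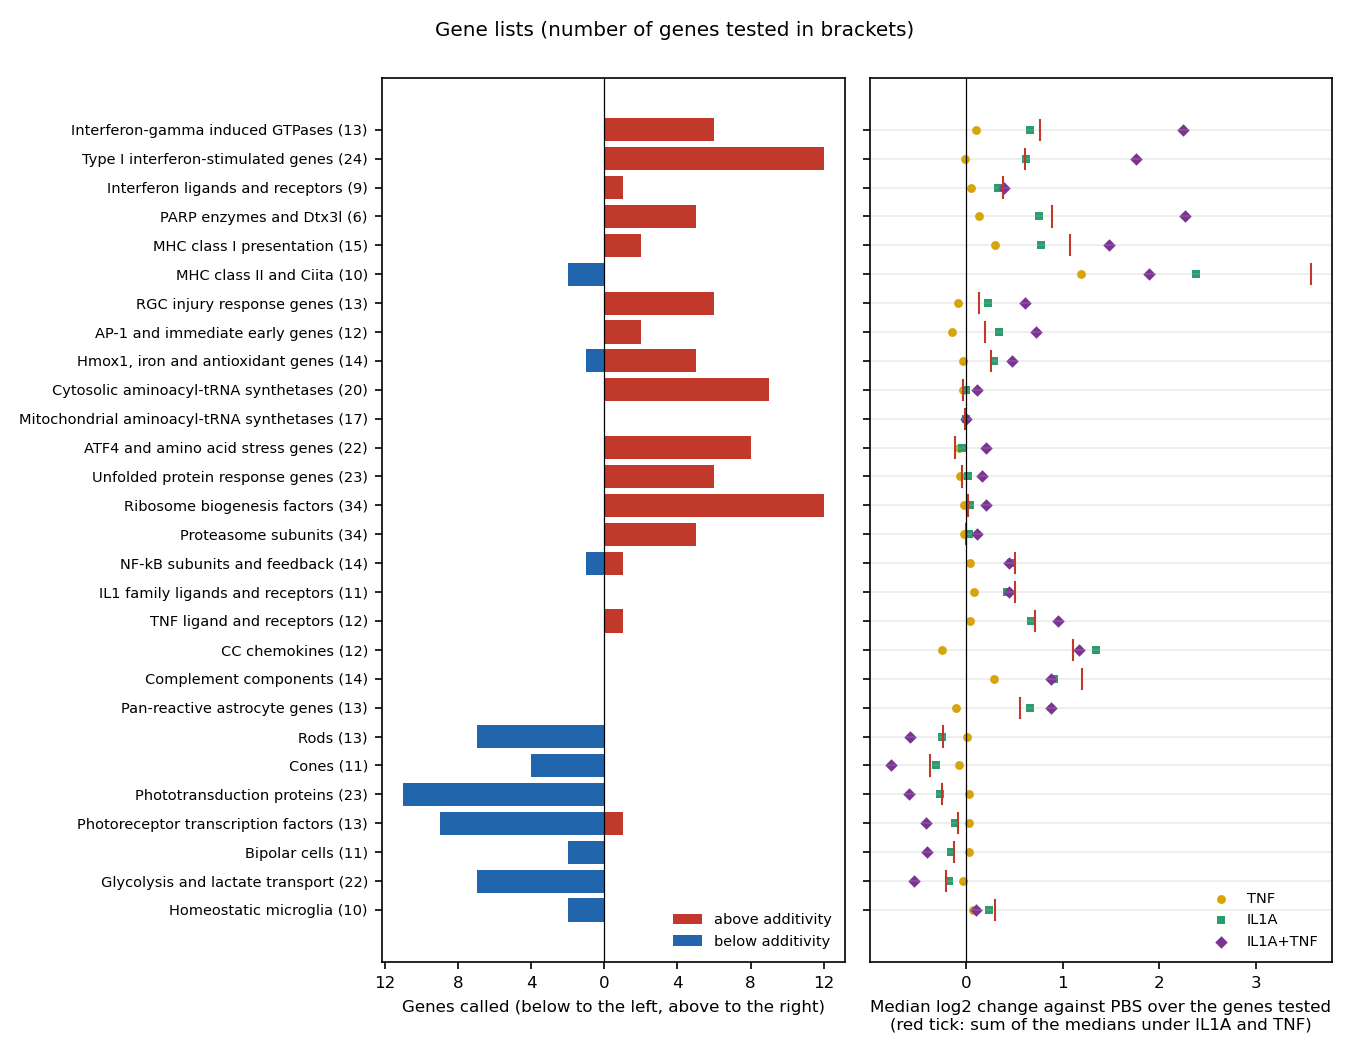
The left panel counts, for each gene list, the genes tested that were above (red) or below (blue) additivity; the right panel gives the median log2 change against PBS with TNF, IL1A and IL1A+TNF, with a red tick at the sum of the medians of the single cytokines. Interferon-induced genes lie to the right of their tick, and rod, cone and MHC class II genes to the left.

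Photoreceptor genes were the main named group below additivity. Of 13 rod genes 7 were below and 0 above (median contrast -0.36), and their median log2 change was -0.58 with IL1A+TNF, -0.24 with IL1A and 0.01 with TNF. Called rod genes included Gnat1, the rod transducin (-0.48 ± 0.13, FDR 0.0217), and Pde6b, a subunit of the phosphodiesterase it activates (-0.33 ± 0.10, FDR 0.0431). The summed level of the rod genes was 43360 to 65630 CPM with PBS, 48360 to 58200 with TNF, 30610 to 52790 with IL1A and 28740 to 49940 with IL1A+TNF. The ranges of all 4 groups overlapped, with medians of 55480, 54610, 47330 and 31830.

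Of 11 cone genes 4 were below and 0 above (2 called in edgeR and in DESeq2, median contrast -0.40). Opn1sw, the short-wavelength cone pigment, had a lowest, median and highest CPM of 261, 358 and 428 with PBS, 240, 316 and 375 with TNF, 84.2, 260 and 321 with IL1A, and 25.2, 85.1 and 333 with IL1A+TNF. With IL1A+TNF 8 of the 10 retinas lay at 25.2 to 123 CPM, and replicates 4 (206) and 9 (333) lay higher, while IL1A replicate 8 was the lowest of its group at 84.2 (contrast -1.19 ± 0.30, FDR 0.0174, expected 204). On the CPM scale Opn1sw was not called (FDR 0.14). Opn1mw, the medium-wavelength pigment, had medians of 105, 98.9, 78.6 and 38.5 CPM (-0.74 ± 0.19, FDR 0.0167), and Gnat2 (-0.54 ± 0.16, FDR 0.0446) and Pde6c (-0.40 ± 0.11, FDR 0.0277) of the cone cascade were the others.

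Transcription factors that set photoreceptor fate moved with them. Of 13, a list made after the values were seen, 9 were below and 1 above (median contrast -0.36). Nrl and Nr2e3 were counted among the rod genes below as well, so the lists are not separate. Rorb, a nuclear receptor needed for rods, had a lowest, median and highest CPM of 320, 425 and 608 with PBS, 334, 482 and 566 with TNF, 284, 393 and 437 with IL1A, and 227, 255 and 306 with IL1A+TNF. All 10 IL1A+TNF retinas were below all PBS and TNF retinas, and 1 or more overlapped the IL1A group (contrast -0.60 ± 0.11, FDR 0.00194). Crx (-0.34 ± 0.08, FDR 0.00592), Nrl (-0.41 ± 0.12, FDR 0.0424), Nr2e3 (-0.38 ± 0.11, FDR 0.0315) and Prdm1 (-0.34 ± 0.09, FDR 0.0177), which act in rod and cone fate, were also below. Neurod1 was the exception above, with medians of 524, 499, 564 and 687 CPM (0.41 ± 0.11, FDR 0.0321), and Otx2 was not called (-0.03, FDR 0.764).

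Glycolysis and lactate transport, on which photoreceptors depend, were below additivity for 7 of 22 genes and above for 0 in a list made after the values were seen (median contrast -0.31). Hk2, the hexokinase of photoreceptors, had medians of 670, 714, 630 and 391.97 CPM with PBS, TNF, IL1A and IL1A+TNF (-0.60 ± 0.14, FDR 0.00705). Slc16a3, a lactate exporter, had medians of 62.2, 58.7, 57.9 and 35.6 CPM (-0.64 ± 0.16, FDR 0.0143), and Slc16a1 (-0.41 ± 0.10, FDR 0.0174) and the regulator Pfkfb3 (-0.38 ± 0.09, FDR 0.00822) were below too. Ldha was not called (-0.26, FDR 0.105). Of 18 genes of oxidative phosphorylation 0 were called in limma (0 at an unadjusted p under 0.05, 0 in edgeR and DESeq2, median contrast 0.02).

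Of 11 bipolar cell genes 2 were below, Vsx1 (-0.45) and Lrtm1 (-0.38), and 0 above (8 at an unadjusted p under 0.05, 1 called in edgeR and 2 in DESeq2). All 11 contrasts were negative (median -0.27), and 10 of the 11 genes were lower than PBS with IL1A+TNF. Of 12 Müller glia genes 0 were called in limma (2 at an unadjusted p under 0.05, 0 in edgeR and DESeq2), and of 13 amacrine and horizontal cell genes 0 were (1 at an unadjusted p under 0.05, 0 in edgeR and DESeq2). Of 8 subunits of the BBSome, which moves cargo in photoreceptor cilia, 3 were below (Bbs7, Ttc8 and Bbs9), in a list made after the values were seen. Single members of other lists were below, such as Bcl2, which blocks apoptosis (-0.37 ± 0.10, FDR 0.0372), and Kcnv2, a potassium channel subunit of photoreceptors (-0.37 ± 0.10, FDR 0.024).

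The genes of smallest FDR below additivity had no single role. Gpr152, an orphan receptor, had a lowest, median and highest CPM of 102, 119 and 138 with PBS, 122, 134 and 141 with TNF, 83.7, 107 and 128 with IL1A, and 61, 78.8 and 117 with IL1A+TNF, and 10 of 10 IL1A+TNF retinas were under the expected 120 (contrast -0.57 ± 0.09, FDR 0.00126). Hdc, the enzyme that makes histamine, had 14.2, 26.2 and 40.4 CPM with PBS, 24.2, 30.4 and 38.5 with TNF, 7.93, 20.3 and 24.5 with IL1A, and 4.88, 8.49 and 17 with IL1A+TNF. All 10 IL1A+TNF retinas were under the expected 21.6 and the group overlapped IL1A and the low end of PBS (-1.33 ± 0.24, FDR 0.0019).

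Regulators of protein degradation and lipid signals were among the others. Klhl3, an adaptor of a cullin ubiquitin ligase, had medians of 45.1, 50.4, 39.4 and 27 CPM with PBS, TNF, IL1A and IL1A+TNF (-0.59 ± 0.11, FDR 0.00194). Peli3, a Pellino ubiquitin ligase of the IL1 receptor route, had medians of 107, 113, 102 and 83.3 CPM (-0.33 ± 0.06, FDR 0.00194), and Faah, which degrades anandamide, 48, 49, 43.8 and 34.7 CPM (-0.46 ± 0.08, FDR 0.00194). In these 5 genes TNF alone was at or over PBS in its median while IL1A alone was under it. The reference was all 31 PBS retinas, and the changes with TNF were not called in limma (FDR 0.413 to 0.875). For Hdc, TNF replicates 1 to 4 stood at 33.05, 38, 38.5 and 31.5 CPM. The PBS eyes of the same mice stood at 39.7, 40.4, 34 and 37.7, all over the PBS median of 26.2. Tmem63b (-0.26 ± 0.05), ENSMUSG00000091089 (-0.79 ± 0.15) and Nol4l (-0.29 ± 0.05, FDR 0.00217 each) and Grtp1 (-0.54 ± 0.10, FDR 0.00239) completed the first 10. Egfl6, a secreted matrix protein, had medians of 1.35, 1.38, 2.37 and 0.84 CPM (-1.34 ± 0.36, FDR 0.0251), with a call lost without IL1A+TNF replicate 2 or IL1A replicate 3. Ero1l, an oxidase of the endoplasmic reticulum, had medians of 69.8, 71.1, 65.5 and 48.7 CPM (-0.44 ± 0.09, FDR 0.00273).

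The 23 genes with an increase below the sum had 18 members called higher than PBS with IL1A+TNF. Their median log2 change was 0.65 with IL1A+TNF, 0.97 with IL1A and 0.57 with TNF (median contrast -0.92). Of the 23, 11 were higher with both IL1A and TNF alone. These were 11 of the 96 genes that TNF alone changed (1.78% of all genes tested were below additivity). Of the 96, 0 were above additivity, against 1.74% of all genes tested. The TNF change is subtracted in the contrast, and 92 of the 96 were higher with TNF. Picking them by that change therefore draws their contrasts below 0, and these counts are no separate evidence. Against IL1A alone, 1 of the 23 was lower with the combination, Srarp (-0.48, FDR 0.0261). For 12 of the 23 the level was also below the sum of the changes in CPM.

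MHC class II genes led this group. Ciita, the coactivator that switches on class II genes, had a lowest, median and highest CPM of 1.72, 3.02 and 4.35 with PBS, 2.92, 5.68 and 7.62 with TNF, 3.33, 6.32 and 9.43 with IL1A, and 4.82, 5.33 and 7.13 with IL1A+TNF. The 3 cytokine groups overlapped one another, and IL1A+TNF had an expected level of 10.7 (contrast -0.98 ± 0.20, FDR 0.00283; CPM scale -0.62, FDR 0.0087). H2-Ab1, a class II chain, had 1.28, 4.42 and 21.6 CPM with PBS, 1.14, 23.3 and 38 with TNF, 8.41, 35.4 and 47.1 with IL1A, and 13.2, 28.5 and 35 with IL1A+TNF, where 99.1 was expected (-2.01 ± 0.51, FDR 0.0173). On the CPM scale its contrast was -0.65 and was not called (FDR 0.244). These were the 2 of 10 class II genes below, with 0 above, and all 10 contrasts were negative (median -1.63). The count was 8 in edgeR and 6 in DESeq2.

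The microglia gene Cx3cr1 was also in this group. Cx3cr1, the fractalkine receptor of microglia, had medians of 11.9 CPM with PBS, 18.1 with TNF, 20.7 with IL1A and 19.4 with IL1A+TNF, where 29.9 was expected (-0.72 ± 0.17, FDR 0.01). Siglech, a microglia lectin, differed in that it fell, with a lowest, median and highest CPM of 1.51, 2.58 and 3.84 with PBS, 1.53, 2.09 and 2.89 with TNF, 0.55, 1.24 and 2.48 with IL1A, and 0.21, 0.31 and 0.83 with IL1A+TNF. All 10 IL1A+TNF retinas were below all PBS and TNF retinas (-1.45 ± 0.33, FDR 0.00708; CPM scale FDR 0.26). These were the 2 of 10 homeostatic microglia genes below, with 0 above (7 at an unadjusted p under 0.05, 3 called in edgeR and 4 in DESeq2). Of the 10 contrasts 8 were negative and 2 positive (median -0.447). Of 12 genes of disease-associated microglia 0 were called in limma (3 at an unadjusted p under 0.05, 0 in edgeR and 1 in DESeq2). Gm1966 (-1.63 ± 0.37, FDR 0.00705), Zmynd15 (-0.64 ± 0.15, FDR 0.0123) and Klrd1, an NK cell receptor at medians of 0.09, 0.74, 0.62 and 0.52 CPM (-2.77 ± 0.61, FDR 0.00621), were others that each cytokine alone raised.

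The 3 genes with a decrease above the sum were Sox8, Slc14a1 and Atp13a4, and 0 of them were called lower than PBS with IL1A+TNF (FDR 0.582, 0.302 and 0.939 in limma). Sox8, a glial transcription factor, had a lowest, median and highest CPM of 17.9, 22.8 and 27.8 with PBS, 16.1, 21.6 and 24.7 with TNF, 15.5, 17.3 and 21.3 with IL1A, and 19.2, 21.7 and 27.1 with IL1A+TNF. IL1A alone changed it by -0.33 on the log2 scale and IL1A+TNF by -0.04, so the combination lay with PBS (contrast 0.41 ± 0.10, FDR 0.0138). Slc14a1, a urea transporter, had a contrast of 0.70 ± 0.21 (FDR 0.045), not called on the CPM scale (FDR 0.0927) and lost in 21 of the 58 fits without 1 retina.

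Genes closest to the receptors were mostly not called. Of 14 NF-kB genes 1 was above and 1 below (median contrast -0.02), Rela (0.28 ± 0.09, FDR 0.0487) and Tnfaip3, which encodes the inhibitor A20, at medians of 260, 251, 183 and 109 CPM with PBS, TNF, IL1A and IL1A+TNF (-0.63 ± 0.16, FDR 0.0174). Ripk1, the kinase of the TNF receptor complex, had medians of 11.7, 10.7, 13.1 and 24.6 CPM (0.79 ± 0.20, FDR 0.0146). Of 11 IL1 family genes 0 were called in limma (1 at an unadjusted p under 0.05, 0 in edgeR and DESeq2), and of 12 CC chemokines 0 were (0 at an unadjusted p under 0.05, 0 in edgeR and DESeq2). Of 14 complement genes 0 were called (2 at an unadjusted p under 0.05, 1 in edgeR and DESeq2), and of 11 genes of gp130 cytokines 0 were (4 at an unadjusted p under 0.05, 3 in edgeR and DESeq2). Il1b (-0.03, FDR 0.988), Tnf (0.21, FDR 0.859), Ccl2 (-0.35, FDR 0.816), Icam1 (-0.22, FDR 0.779) and Lcn2 (-0.30, FDR 0.834) were examples. A p that misses the threshold does not show that these genes were additive. Of the reactive astrocyte lists, 0 of 13 pan-reactive genes (2 at an unadjusted p under 0.05, 0 in edgeR and DESeq2) and 0 of 11 A1 genes (4 at an unadjusted p under 0.05, 2 in edgeR and 3 in DESeq2) were called in limma, and 1 of 12 A2 genes was above, Sphk1 (0.72 ± 0.14, FDR 0.00239). Gfap had a contrast of 0.70 ± 0.26 (FDR 0.114).

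Most calls did not depend on whether additivity was taken on the log2 or the CPM scale. On the CPM scale, where the changes in CPM of the single cytokines were summed, 355 of 19519 genes were above (1.82%) and 283 below (1.45%). They held 302 of the 340 genes above on the log2 scale and 269 of the 348 below, and 0 genes were on opposite sides.

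Promoter matches were counted in the genes of each group that RefSeq paired with a promoter, 273 above and 246 below, and these counts are descriptions. A GAS match was in 16.8% of promoters of the genes above, 5.69% of those below and 6.93% of those of all genes tested. An ISRE match was in 11.8%, 4.79% and 7.31%, an NF-kB match in 7.56%, 5.09% and 5.95%, an AP-1 match in 8.68%, 5.09% and 5.65%, and a CARE match in 5.04%, 3.59% and 2.39%. Over all 32851 promoters the shares were 8.3% for GAS, 8.56% for ISRE, 5.82% for NF-kB, 7.81% for AP-1 and 3.97% for CARE. Counted by gene, the shares among all genes tested were 8.75% for ISRE and 2.86% for CARE. Among the interferon-gamma-induced GTPases an ISRE match, as in the Irgm1 sequence, was in 8 of 9 genes. Among cytosolic synthetases a CARE match, as in the Tars sequence, was in 5 of 12 genes, against 0 of 14 mitochondrial ones. In the list of ATF4 genes a CARE match was in 6 of 20 genes, but in only 1 of the 8 above additivity.

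The 3 retinas that stood apart did so over the whole set. IL1A+TNF replicate 9 was the lowest of its 10 for 244 of the 340 genes above and the highest for 259 of the 348 below. IL1A replicate 8 was the highest of its 9 for 226 of the 340 and the lowest for 239 of the 348. Among all genes tested, IL1A+TNF replicate 9 was the lowest of its 10 for 2843 and the highest for 2785. IL1A replicate 8 was the highest of its 9 for 3813 of all genes tested and the lowest for 4578. Over the 340 genes the median log2 difference from PBS was 0.03 in IL1A+TNF replicate 9, 0.13 in replicate 4 and 0.35 to 0.64 in the other 8, and it was 0.32 in IL1A replicate 8 and -0.05 to 0.16 in the other 8 IL1A retinas. Without IL1A+TNF replicate 9 the counts were 710 above and 701 below, without IL1A+TNF replicate 4 they were 482 and 453, and without IL1A replicate 8 they were 513 and 628.

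**Figure D4:**
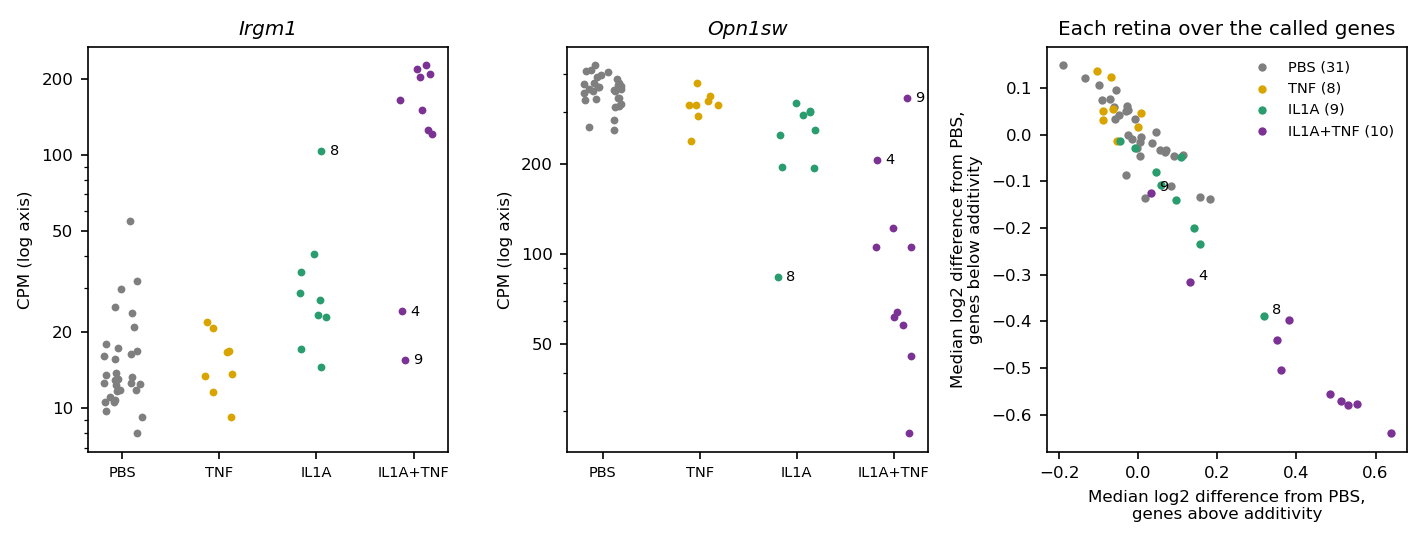
The first panels show the CPM (log axis) of Irgm1 and Opn1sw in each retina by treatment, with IL1A replicate 8 and IL1A+TNF replicates 4 and 9 labelled; the last panel shows for each retina the median log2 difference from PBS over the 340 genes above additivity (x axis) and the 348 below (y axis). IL1A+TNF replicate 9 (0.03 on the x axis) lies among the IL1A retinas and IL1A replicate 8 (0.32) near the IL1A+TNF retinas.

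Other retinas of the same treatments were sequenced in batch 2 (5 PBS and 6 IL1A+TNF), without single cytokines. There IL1A+TNF was higher than PBS for 242 of the 340 genes above (18.5% of all genes tested) and lower for 0 (17%). It was lower for 273 of the 348 genes below and higher for 18. Of the named genes, the log2 change was 2.31 for Irgm1 (FDR 0.00598), 0.28 for Slain2 (FDR 0.00497) and -0.70 for Rorb (FDR 0.000195). The synthetases were divided, with Tars (0.45, FDR 0.0265), Aars (0.26, FDR 0.048), Gars (0.42, FDR 0.00424), Kars (0.28, FDR 0.00382) and Rars (0.22, FDR 0.00987) higher and Yars (0.06, FDR 0.528), Mars (0.07, FDR 0.503), Iars (0.13, FDR 0.095) and Cars (0.17, FDR 0.197) not called. Hap1 (0.34, FDR 0.122), Egfl6 (-0.72, FDR 0.0836) and ENSMUSG00000091089 (-0.41, FDR 0.0655) were not called there either. These values bear on the combination's change only, since the sum of the single changes could not be taken in batch 2.

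Leaving out 1 retina at a time gave 170 to 710 genes above and 188 to 701 below, and 150 genes above and 153 below were called in all 58 of these fits. The share above among the called genes was 45% to 63.6% in these fits. The sign of the contrast was kept by all 340 and 348 genes. The contrast did not differ between the sexes for any gene at an FDR under 0.05 in limma or in edgeR (998 and 872 genes at an unadjusted p under 0.05).

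**Figure D5:**
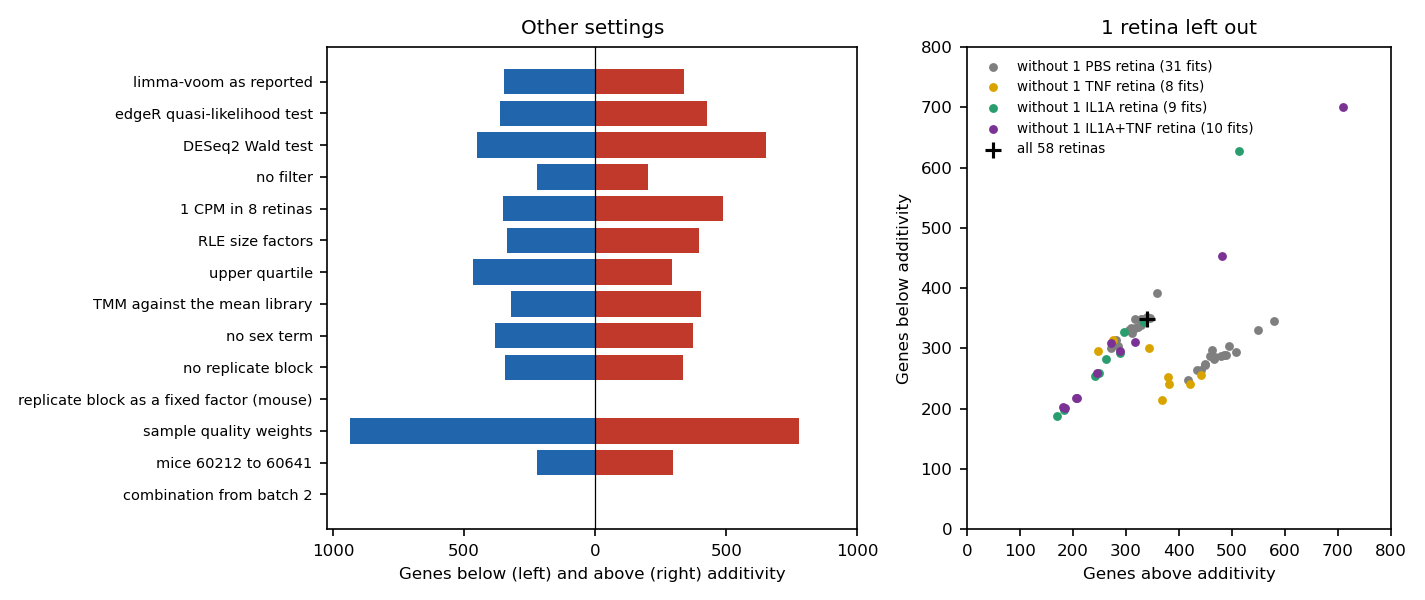
Bars count the genes above (red) and below (blue) additivity under each way of processing the counts, one of which kept only mice in the span of animal numbers that holds all 3 cytokine groups, and points give the same counts with 1 retina left out at a time. Counts are 340 and 348 as reported, 0 and 0 with the mouse as a fixed term or with the combination from batch 2, and 710 and 701 without IL1A+TNF replicate 9.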

How the data were processed

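RNA of single whole retinas was sequenced (poly-A selected, KAPA mRNA HyperPrep, NovaSeq), and the authors deposited raw read counts per Ensembl gene; their notes name mm10, STAR 2.7.9a, featureCounts and Subread 2.0.1. Symbols and positions of 35533 of the 37315 genes were taken from GENCODE M21. Genes were kept by filterByExpr (minimum count 10, minimum total 15, proportion 0.7, large group 10), which left 19548. In R 4.3.3, counts were scaled by TMM (edgeR 4.0.16) and fitted with limma-voom (3.58.1, statmod 1.5.0) with treatment and sex as terms and the mouse as a random block by duplicateCorrelation (2 rounds, correlation 0.05154, 53 residual degrees of freedom). FDRs are Benjamini-Hochberg values over all genes tested. Errors are SEs of log2 contrasts from this fit. Expected levels come from group means of log2 CPM with an offset of 0.5 counts. On the CPM scale the SE came from the delta method. Within a group each retina came from a different mouse. The mouse pairs eyes by label: the deviations of the 2 eyes of 23 mice had a median correlation of 0.0137 (-0.233 to 0.268), over 0.1 in 8 mice. No retina went against its labelled sex (0), and no libraries were identical (0 pairs, at least 8.51 chi-square per gene). On simulated counts for this contrast over 19548 genes, 67.2%, 86.6% and 95.5% of genes changed by 0.5, 1 and 2 on the log2 scale were called, with 14 of 19348 unchanged genes. The changed genes had a mean of at least 1 CPM. Simulated counts were drawn separately for each gene and retina, without a mouse effect and without retinas that stood apart over many genes. The shares can therefore differ in the real data.

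Named genes were those of a mean of at least 1 CPM with the 10 smallest FDRs and the 5 largest contrasts on each side, the 5 of smallest FDR of each pattern, and list members at the account of their list; other names were chosen after their values were seen. The groups, lists and tests were chosen with earlier results of these data known. The lists said to be made after the values were seen, the CARE motif and TMM against the mean library were added later. Alternatives were edgeR, DESeq2 1.42.0, other filters, scalings and weights, no sex term, no or a fixed mouse block, fewer mice, the combination from batch 2, the CPM scale, and 1 retina left out at a time. TMM factors ran from 0.96 to 1.08. The other retinas of the series were not used here, other than 11 of batch 2. Some single genes are not reported here.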

Additional observations from a re-analysis of the deposited data

Results flagged for a closer look

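Among the named genes, 13 of 102 groups of 8 to 10 retinas held a retina far from the others, where chance gives about 1 in 20 (5.1). In 6 of the 13 it was IL1A replicate 8. Its CPM was 19.02 for Pdlim3 (median of the others 14.5), 144 for Hap1 (107), 96.1 for Parp10 (24.1), 7.93 for Hdc (20.9), 27.9 for Klhl3 (39.4) and 45.7 for Grtp1 (70.5), in each case on the side of the IL1A+TNF group. TNF replicate 6 stood at 81.5 for Yars (73), 0.0952 for Tgtp2 (0.606) and 122 for Gpr152 (134). TNF replicate 7 stood at 334 for Rorb (483). IL1A+TNF replicate 9 stood at 109 for Peli3 (83.2), replicate 1 at 13.2 for H2-Ab1 (28.5) and replicate 2 at 5.56 for Gm1966 (2.21). The part of these retinas in the contrasts was measured only by leaving each out, and no named gene changed the sign of its contrast (0 of 34).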

How the results depend on the processing

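The 340 genes above and 348 below became 650 above in DESeq2, 203 and 221 with no filter on low counts, 778 and 936 with sample quality weights, and 45 and 29 with a contrast of at least 1. With only the mice in the span of animal numbers that holds all 3 cytokine groups 224 were below. With the replicate block as a fixed factor, so that the mouse pairs the eyes and only the 23 mice with both eyes count, counts were 0 and 0. They were 0 and 0 with the combination from batch 2, and 333 and 346 with no replicate block. Other scalings, edgeR, the 1 CPM filter and no sex term kept both counts within 1.5 times.

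Without 1 retina counts ran from 170 to 710 above and 188 to 701 below. They moved by over 1.5 times without IL1A+TNF replicates 1 (206 and 217), 2 (181 and 203), 3 (185 and 201), 9 (710 and 701) and 10 (208 and 217), IL1A replicates 3 (170 and 188), 5 (183 and 198) and 8 (513 and 628), PBS replicates 4 (549 above) and 12 (580 above) and TNF replicate 3 (215 below). The cause of these moves was not tested.

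Of 34 named genes 0 reversed under any alternative. All 34 lost their call with the fixed mouse block and with batch 2, 8 with fewer mice, 4 with no filter (Igtp, Irgm1, Parp10 and Slc14a1), 4 on the CPM scale (H2-Ab1, Gm1966, Siglech and Slc14a1), 1 in edgeR (Egfl6) and 1 with no sex term (Slc14a1). Without 1 retina, calls were lost in 6 of 58 fits for Tgtp2, 27 for Igtp, 3 for Irgm1, 21 for Parp10, 2 for Egfl6 and 21 for Slc14a1. Recovery was 67.2% at a contrast of 0.5 in simulated counts, which held no retinas that stood apart. With 8 to 10 cytokine retinas a group, smaller departures from additivity can be missed.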
